A study of Homo sapiens with 4 samples.

Results

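The genes described here make up the FGF19-FGFR4 bile acid hormone axis: the hormones FGF19 and FGF21, the receptors FGFR1 to FGFR4, their co-receptor KLB, the bile acid sensor NR1H4 (the protein is called FXR), the repressor NR0B2 (SHP) and the enzyme CYP7A1. They were chosen by gene symbol, and all 10 had a row among the 42169 gene rows of the deposited count table. The table comes from Huh7 cells, a line grown from a human liver tumour, in 2 clones. The control clone (clone 1, genotype WT) was compared with a clone labelled Brf1/TTP DKO (clone 18, DKO below), in which the genes for TTP (ZFP36) and for BRF1, here the product of ZFP36L1, had been knocked out. Each clone gave 2 libraries, and both clones were given DMSO for 3 h and then 5 µg/ml actinomycin D, an inhibitor of transcription, for 10 min before harvest. Each genotype is 1 clone, so that the 2 cannot be told apart, and no library without actinomycin D was analysed here.

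FGF19 is made mainly by the ileum when bile acids activate FXR there. It travels to the liver, where FGFR4 bound to KLB relays it and transcription of CYP7A1, the rate-limiting enzyme of bile acid synthesis, goes down. In hepatocytes FXR also induces NR0B2, which represses CYP7A1 by a second route. FGF21 is a hormone of fasting and stress that the liver secretes and that signals through FGFR1 with KLB. Normal hepatocytes make little FGF19, whereas liver tumours can make it themselves, and its gene lies close to CCND1 in a segment that is amplified in some of them. TTP and BRF1 bind AU-rich elements in the 3′ UTR of mRNAs and recruit enzymes that shorten the poly(A) tail, and FGF21 mRNA has been described as a target of TTP in mouse liver.

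Because the knocked-out proteins bind UAUUUAU and its variants, the longest annotated 3′ UTR of each gene was searched for that heptamer on the sense strand. The FGF19 3′ UTR, 1030 bases long, held 3 copies, all near its 3′ end (positions 902, 951 and 970 from the stop codon). The FGF21 3′ UTR held 3 copies within 113 bases. FGFR1, FGFR3, KLB, NR1H4 and CYP7A1 held 1 each, and FGFR2, FGFR4 and NR0B2 held 0. Of 11925 tested protein-coding genes with an annotated 3′ UTR, 36.0% held at least 1 copy and 7.13% held 3 or more. The sites of both hormones and those of KLB, FGFR3 and NR1H4 follow, so that the surroundings of the FGF19 copies can be set beside the others. They are read 5′ to 3′ on the RNA from GENCODE 29 transcripts (hg38), with the heptamer in capitals.
FGF19 site 1 (chr11:69698345-69698369, minus strand): ccaacaugaUAUUUAUgaguaauuu
FGF19 site 2 (chr11:69698296-69698320, minus strand): uucuuacauUAUUUAUgcccccaaa
FGF19 site 3 (chr11:69698277-69698301, minus strand): cccaaauuaUAUUUAUguauguaag
FGF21 site 1 (chr19:48758245-48758269, plus strand): ucuccucuuUAUUUAUuagguuauu
FGF21 site 2 (chr19:48758257-48758281, plus strand): uuauuagguUAUUUAUcuuauuuau
FGF21 site 3 (chr19:48758266-48758290, plus strand): uauuuaucuUAUUUAUuuuuuuauu
KLB site (chr4:39450216-39450240, plus strand): auaugcaccUAUUUAUaccuauucu
FGFR3 site (chr4:1808104-1808128, plus strand): uuguaaagcUAUUUAUgggccccug
NR1H4 site (chr12:100563591-100563615, plus strand): cuugaugaaUAUUUAUguuguaauu
In these windows the heptamer has a U directly on both sides at FGF21 sites 1 and 3, and at none of the FGF19 sites. A match is a run of letters and was not tested for binding.

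**Figure D1:**
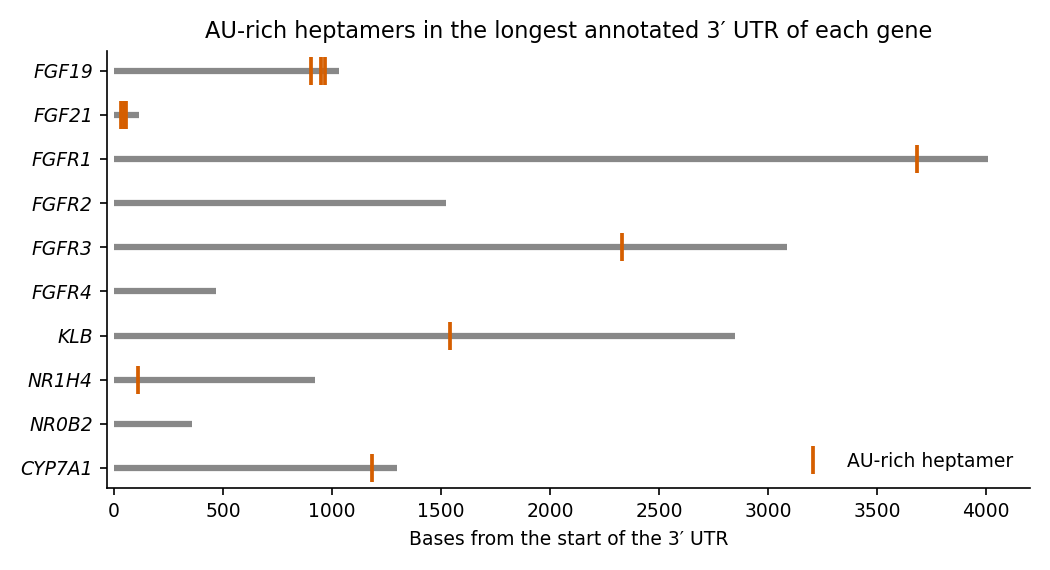
Longest annotated 3′ UTR of each of the 10 genes (grey bar, x axis in bases from the stop codon) with the copies of the heptamer searched for (orange ticks). The 3 copies of FGF19 lie in the last part of its 1030 bases, the 3 copies of FGF21 lie within 113 bases, and 3 genes hold none.

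Counts on genes totalled between 9685798 and 16430228 per library, so that 3 counts correspond to 0.183 to 0.310 CPM (counts scaled to 1000000 counts on genes per library). The reads carry no molecular identifiers, so this floor covers counting error only. Neither targeted mRNA was lower in the DKO clone at these totals. With totals of spike-in RNA, described below, the log2 fold change was -0.17 for ZFP36 (SE 0.52, edgeR adjusted p = 0.807). For ZFP36L1 it was -0.50 (SE 0.53, edgeR adjusted p = 0.503), and the median of all tested genes was -0.68 in that fit. ZFP36 had 30.0 and 23.3 CPM in control against 37.5 and 36.2 CPM in DKO, and ZFP36L1 had 135 and 109 CPM against 147 and 118 CPM. Neither difference passed the test (edgeR adjusted p = 0.207 and 0.775). Without the kind of mutation, which the labels do not name, these levels do not check the genotype. The 12 hepatocyte markers all had counts, with sums of 27378 to 28268 CPM in control and 26536 to 29810 CPM in DKO. Of these, 3 were higher in DKO (AHSG, APOH and TTR) and AFP was lower, against 2.24% higher and 3.14% lower of all tested genes. The sums hide opposite differences, since mean AFP was 7823 CPM in control and 3547 CPM in DKO. Mean APOB was 7663 CPM in control and 11561 CPM in DKO, a difference that did not pass (edgeR adjusted p = 0.220).

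FGF19 was the only gene of the axis that differed between the clones past the threshold of an adjusted p under 0.05. Its mRNA was 1.86-fold higher in the DKO clone. The receptors FGFR4, FGFR3 and FGFR1, the co-receptor KLB, the sensor NR1H4 and the repressor NR0B2 were expressed and did not pass. FGF21 and CYP7A1 had no count in any library, and FGFR2 had 2 counts in all. With 7 genes of the axis tested, 1 rose and 0 fell. Across all 13359 genes tested with edgeR, 5.37% passed in either direction, 2.24% higher and 3.14% lower in DKO, and a single call among 7 genes does not set the axis apart from them. The median log2 fold change was -0.08 over the 7 genes and 0.0015 over all tested genes.

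FGF19 (chromosome 11, 69698232 to 69704642, minus strand, hg38) had 580 and 1047 counts in control against 1225 and 2439 counts in DKO. Scaled to depth, these were 59.9 and 83.7 CPM in control and 119 and 148 CPM in DKO. The clones did not overlap, and the lower DKO library was 1.42-fold above the higher control library. The mean rose from 71.8 ± 16.9 to 134 ± 20.6 CPM (SD, n = 2). On the log2 scale this was a change of 0.91 (SE 0.22, edgeR adjusted p = 0.0281). By p-value it was gene 457 of the 13359, and by fold change gene 438. The call did not hold without DKO replicate 1 (1.07, edgeR adjusted p = 0.0549) or without DKO replicate 2 (0.71, edgeR adjusted p = 0.374). It held without control replicate 1 (0.65, edgeR adjusted p = 0.0424) and without control replicate 2 (1.20, edgeR adjusted p = 0.000150). The share of all tested genes past the threshold differed between these fits, at 1.68% and 1.61% without the first and the second DKO library and 15.6% and 5.35% without the first and the second control library. All 4 libraries gave FGF19 the same call with DESeq2 size factors (5.41% of genes past the threshold), without a filter (5.39%), with DESeq2 (4.65%) and with limma-voom (5.25%). A block for the replicate number also kept it, in a fit that called 30.1% of genes.

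The rise of FGF19 was measured relative to the other genes. Totals of the ERCC spike-in RNAs, mixed into the same amount of total RNA of each sample, were also used as library sizes. FGF19 then differed by 0.15 (SE 0.53, edgeR adjusted p = 0.832). That scaling moved the median of all tested genes by -0.68 and gave 22 genes higher and 307 lower (2.46% of genes tested), against 299 higher and 419 lower with totals of gene counts and TMM factors. FGF19 stayed above that median under both scalings. Spike-ins took 1.47% of all counts in control replicate 1 but 0.946% in control replicate 2. For DKO replicates 1 and 2 their shares were 1.62% and 2.10%. With an SE of 0.53, against 0.22 with totals of gene counts, the spike-in fit cannot decide whether FGF19 rose against the spike-ins. In RNA of whole cultures, a larger share of cells with FGF19 mRNA and more FGF19 mRNA per cell cannot be told apart.

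**Figure D2:**
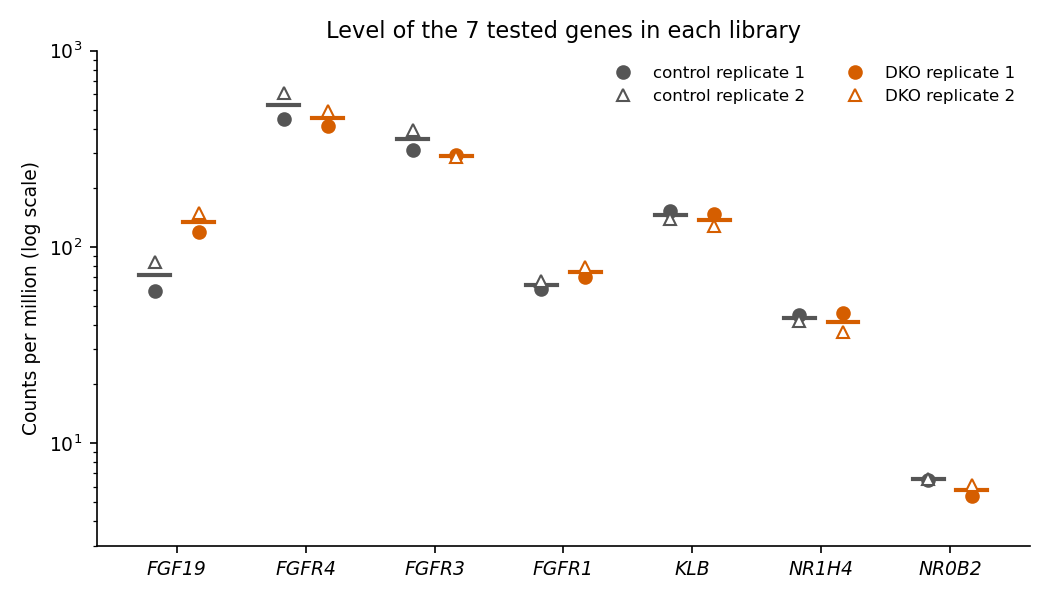
CPM (log axis) of the 7 tested genes in each library, with the mean of each clone as a bar. The FGF19 points of the DKO clone (119 and 148 CPM) lie above those of the control clone (59.9 and 83.7 CPM), whereas for FGFR4, KLB and NR1H4 the clones overlap.

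FGF21 (chromosome 19, 48755559 to 48758333) was at 0 counts in all 4 libraries. At these depths that leaves up to 0.310 CPM undetected in the shallowest library and 0.183 CPM in the deepest, and no difference between the clones could be tested. Among the other FGF ligands and their binding proteins, 4 of 23 were tested and none passed. None passed with DESeq2 or limma-voom either. At an unadjusted edgeR p under 0.05, FGF2 and FGF12 had higher values in DKO and none had lower ones, against 9.57% of all tested genes on the higher side and 10.6% on the lower. FGF2, a growth factor without a classical signal peptide, had 3.92 and 2.24 CPM in control and 7.50 and 4.75 CPM in DKO (log2 fold change 1.00, edgeR adjusted p = 0.111). It passed with no filter on low counts (edgeR adjusted p = 0.0213) and with control replicate 1 left out (1.39, edgeR adjusted p = 0.00565). FGF12, which stays inside the cell, had a log2 fold change of 0.72 (edgeR adjusted p = 0.135). Per kilobase of annotated exon, the highest value of these ligands was 1.50 CPM (FGF12, DKO replicate 1), whereas FGF19 had 24.5 and 34.2 CPM per kilobase in control and 48.7 and 60.7 in DKO. A further 10 genes of this list had no count in any library.

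Among the receptors, FGFR4 (chromosome 5, 177086886 to 177098144), the receptor through which FGF19 acts on hepatocytes, had 448 and 612 CPM in control and 415 and 496 CPM in DKO. The clones overlapped, with means of 530.3 ± 116 and 455 ± 56.7 CPM and a log2 change of -0.21 (SE 0.22, edgeR adjusted p = 0.652). FGFR3 (chromosome 4, 1793293 to 1808872), which can also bind FGF19, had 313 and 396 CPM in control and 294 and 286 CPM in DKO. Both DKO libraries of FGFR3 were below both control libraries, but the difference of -0.28 (SE 0.20, edgeR adjusted p = 0.474) did not pass. FGFR1 (chromosome 8, 38400215 to 38468834), the receptor for FGF21 in fat, had 61.2 and 66.8 CPM in control and 70.5 and 78.6 CPM in DKO. Its DKO libraries were the higher ones, and the log2 change of 0.23 (SE 0.19, edgeR adjusted p = 0.552) did not pass. FGFR2 (chromosome 10, 121478334 to 121598458) had 2 counts in control replicate 2 and 0 in the other libraries, which is under the floor.

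KLB (chromosome 4, 39406853 to 39451536) encodes beta-klotho, which FGFR4 and FGFR1 need to respond to FGF19 and FGF21. It had 153 and 139.5 CPM in control and 147 and 128 CPM in DKO. The clones overlapped and the difference was -0.08 (SE 0.19, edgeR adjusted p = 0.866). The related gene KL, whose product serves FGF23, had at most 12 counts in a library and was not tested.

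NR1H4 (chromosome 12, 100473708 to 100564413) had 45.0 and 41.9 CPM in control and 46.1 and 36.9 CPM in DKO. The lowest and the highest of these values were both from the DKO clone, and the log2 fold change was -0.06 (SE 0.20, edgeR adjusted p = 0.907). NR0B2 (chromosome 1, 26911489 to 26913966), a target of FXR in liver, had 63 and 82 counts in control and 55 and 101 counts in DKO. These were 6.50 and 6.56 CPM against 5.35 and 6.15 CPM, and although the clones did not overlap, the difference of -0.16 (SE 0.27, edgeR adjusted p = 0.795) was smaller than its error. CYP7A1 (chromosome 8, 58490178 to 58500236), on which both FGF19 and NR0B2 act, was at 0 counts in all 4 libraries. The output of the axis that is usually read, a fall of CYP7A1 mRNA, could therefore not be measured in these cells.

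Counted by overlap alone, FGF19 and FGFR1 were higher and FGFR3 and NR0B2 lower in both DKO libraries, which is 4 of 7 genes. Of all genes tested, the libraries did not overlap for 49.9%, with 23.7% higher and 26.2% lower in DKO. The axis was near that background. With spike-in totals as library sizes the sign of FGFR1 turned to -0.48 (edgeR adjusted p = 0.514).

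**Figure D3:**
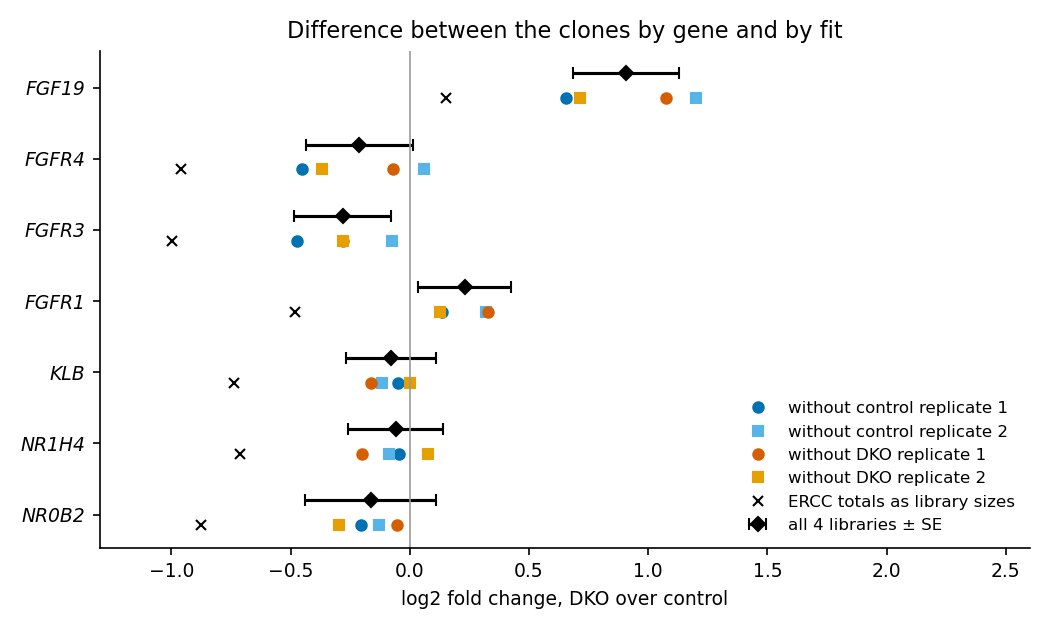
Log2 fold change, DKO over control, of the 7 tested genes in the fit of all 4 libraries (diamond with its SE), in the fits without 1 library (circles and squares) and with spike-in totals as library sizes (crosses). FGF19 lies at 0.91 and between 0.65 and 1.20 in the fits without 1 library, and with spike-in totals it lies at 0.15.

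Levels of different genes were compared per kilobase of the union of their annotated exons. In control cells the order was FGFR4 (109.8 ± 24.0 CPM per kilobase, SD, n = 2), FGFR3 (73.1 ± 12.0), FGF19 (29.3 ± 6.89), KLB (24.0 ± 1.53), NR1H4 (12.0 ± 0.608), NR0B2 (5.65 ± 0.0317) and FGFR1 (4.63 ± 0.287). FGF19 and KLB overlapped there, and no other neighbours in that order did. In DKO cells FGF19 stood at 54.7 ± 8.43 CPM per kilobase and overlapped FGFR3 at 59.9 ± 1.20, with both libraries above those of KLB at 22.6 ± 2.28. FGFR1 and NR0B2 overlapped in DKO cells. Over both clones, FGFR4 was higher per kilobase than 97.3% of the tested genes with an annotated length, FGFR3 than 95.5% and FGF19 than 92.2%. KLB was higher than 84.9%, NR1H4 than 70.8%, NR0B2 than 49.1% and FGFR1 than 47.6%. The place of FGFR1 depends on the length used, since its annotated exons add up to 13842 bases and its longest coding transcript to 6054. With the latter it had 10.6 ± 0.656 CPM per kilobase in control and stood above NR0B2. The overlap of FGF19 and FGFR3 in DKO cells depends on the length too. By the longest coding transcript FGFR3 had 65.4 ± 1.31 CPM per kilobase there, and both its libraries were above those of FGF19, which stayed at 54.7 ± 8.43.

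Of the summed level of the 4 receptors per kilobase, FGFR4 made up 57.4% and 59.5% in control against 56.7% and 61.3% in DKO. FGFR3 made up 35.3% to 40.0% and FGFR1 2.26% to 3.39% over the 4 libraries. The receptor makeup of FGFR4 and FGFR3 overlapped between the clones, while the share of FGFR1 was 2.73% and 2.26% in control and 3.35% and 3.39% in DKO. By the length of the longest coding transcript the shares were 63.0% to 67.2% for FGFR4, 27.3% to 31.4% for FGFR3 and 3.73% to 5.52% for FGFR1.

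The neighbours of FGF19 on chromosome 11 did not share its call. Of the 10 nearest tested genes on each side, 0 passed in either direction with edgeR, DESeq2 or limma-voom. Of all tested genes 5.37% passed with edgeR. At an unadjusted edgeR p under 0.05, 3 neighbours were higher and 1 lower, against 9.57% higher and 10.6% lower of all tested genes. The neighbours' log2 fold changes ran from -1.04 to 1.03 with a median of 0.09. CCND1, the cyclin D1 gene that lies close to FGF19, had a mean of 638 CPM in control and 805 CPM in DKO (0.34, edgeR adjusted p = 0.399). AP003071.5, on the same side as CCND1, had the highest value of the neighbours, with 3.68 and 7.68 CPM (1.03, edgeR adjusted p = 0.0822). On the other side ANO1, a chloride channel gene, had the lowest, with 3.37 and 1.62 CPM (-1.04, edgeR adjusted p = 0.111). Around FGFR3, FGFR4, KLB and NR0B2 the neighbours' medians were -0.33, -0.31, -0.31 and -0.33. Each of these genes had a value closer to 0 than the median of its neighbours. Around FGFR1 and NR1H4 the medians were 0.11 and 0.08.

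**Figure D4:**
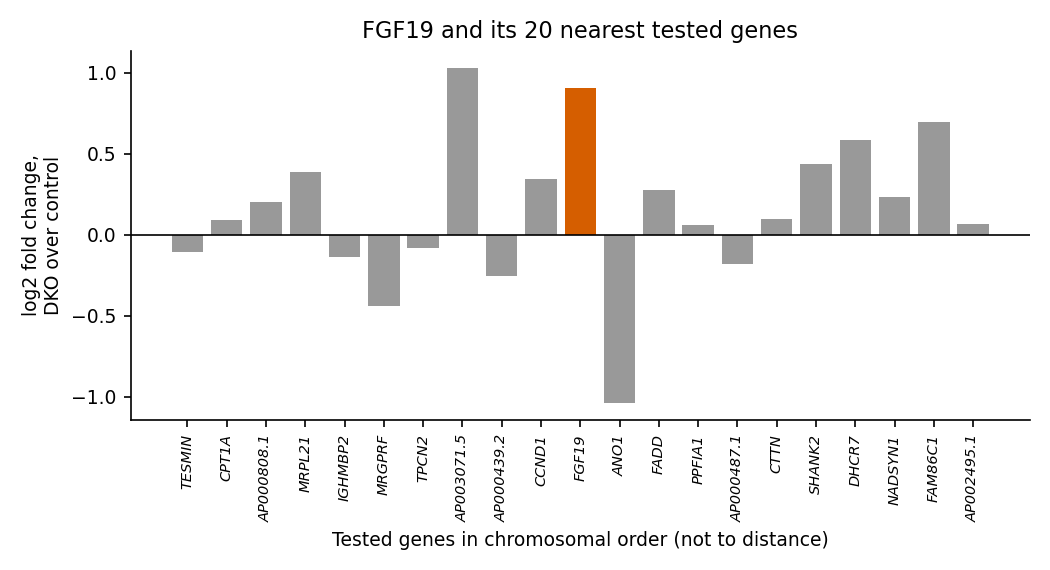
Log2 fold change, DKO over control, of FGF19 (orange) and of the 10 nearest tested genes on either side (grey), in the order of the genes along chromosome 11. FGF19 is the gene that passed the threshold, and the 20 others have a median of 0.09.

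Genes that carry or modify FGF signals were counted by list. Beside these lists and those that follow, 2.24% of all tested genes were higher and 3.14% lower, with a median of 0.0015. The list of co-receptors and relatives had 12 of 13 genes tested, of which 0 rose, 1 fell and 11 did not pass (median 0.06). The gene that fell was HSPG2, which encodes the heparan sulfate proteoglycan perlecan, from 1024 ± 129 to 547 ± 36.6 CPM (SD, n = 2; log2 fold change -0.90, SE 0.22, edgeR adjusted p = 0.0282). DESeq2 and the fit without a filter each called 1 gene of this list higher and 1 lower, and limma-voom called 0 higher and 1 lower. Of the 28 genes that relay the signal from receptor to kinases, none passed (median -0.03), and the leading one was the kinase gene RPS6KA1 (-0.81, edgeR adjusted p = 0.0579), called with no filter (-0.79, edgeR adjusted p = 0.0177) and when control replicate 1 was left out (-1.02, edgeR adjusted p = 0.000325). At an unadjusted p under 0.05, 1 gene of this list had a higher and 1 a lower value in DKO, and DESeq2 and limma-voom called 0. The list of ERK outputs and feedback inhibitors had 18 of 20 genes tested, of which 3 rose, 1 fell and 14 did not pass (median 0.27). IER3, induced early after growth signals, rose from 56.6 ± 7.40 to 140 ± 32.9 CPM (1.31, SE 0.22, edgeR adjusted p = 0.00332). SPRY1, an inhibitor of receptor tyrosine kinase signals, rose from 33.5 ± 1.75 to 58.0 ± 8.21 CPM (0.80, SE 0.20, edgeR adjusted p = 0.0293). DUSP4, a phosphatase of ERK, fell from 128 ± 28.5 to 71.0 ± 11.3 CPM (-0.84, SE 0.22, edgeR adjusted p = 0.0384). The other that rose, FLRT3, a membrane protein that binds FGF receptors, is named after its value was seen (0.78, edgeR adjusted p = 0.0493). DUSP6, ETV4 and ETV5, which are often used as readouts of FGF signalling, had 0.38 (edgeR adjusted p = 0.272), -0.15 (edgeR adjusted p = 0.742) and 0.13 (edgeR adjusted p = 0.767), and are also named outside the rule.

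Genes of bile acid synthesis other than CYP7A1 had 14 of 20 members tested, with 0 risen, 1 fallen and 13 not passed (median -0.19). AMACR, a racemase of bile acid side chains, fell from 11.0 ± 0.325 to 5.33 ± 0.380 CPM (-1.03, SE 0.26, edgeR adjusted p = 0.0309). CYP27A1, which opens the alternative pathway of bile acid synthesis, had 22.5 and 18.6 CPM (-0.26, edgeR adjusted p = 0.546). CYP8B1, the enzyme of cholic acid synthesis, had at most 2 counts in a library. In the list of bile acid and sterol transporters 12 of 19 genes were tested, with 1 risen, 0 fallen and 11 not passed (median -0.13). The gene that rose was ABCG8, a subunit of the sterol exporter, with 2 and 0 counts in control and 14 and 23 counts in DKO (edgeR adjusted p = 0.0131). It entered the test through its DKO libraries and is at the floor in control. The uptake carrier of bile acids in hepatocytes, SLC10A1, was at 0 in all libraries, and the export pump ABCB11, a target of FXR, had 1 and 1 counts in control and 6 and 13 counts in DKO, too few to be tested.

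Factors that act on the CYP7A1 promoter were mostly expressed, with 28 of 30 tested, 0 risen, 2 fallen and 26 not passed (median -0.05). VDR, the vitamin D receptor, had 22 and 19 counts in control and 1 and 6 counts in DKO (edgeR adjusted p = 0.0132). It entered the test through its control libraries, 1 of its DKO libraries is under the floor, and its fitted log2 fold change lay between -4.12 and -2.29 when single libraries were left out. GATA6 fell from 62.2 ± 7.05 to 37.1 ± 1.20 CPM (-0.74, SE 0.20, edgeR adjusted p = 0.0432). Other genes described as targets of FXR, in whichever direction, had 19 of 25 members tested, with 2 risen, 0 fallen and 17 not passed (median -0.02). UGT2B4, which conjugates bile acids, rose from 2.39 ± 0.0170 to 17.0 ± 0.772 CPM (2.83, SE 0.28, edgeR adjusted p = 2.75e-05), with the reservation that it resembles other UGT2B genes in sequence. The complement gene C3 rose from 176 ± 32.2 to 398 ± 6.59 CPM (1.18, SE 0.21, edgeR adjusted p = 0.00411). Among regulators and metabolic partners of FGF21, 16 of 17 were tested, with 0 risen, 1 fallen and 15 not passed (median 0.16). ATF4, a transcription factor that drives FGF21 under stress, was at 247 ± 91.7 and 249 ± 28.7 CPM (0.01, edgeR adjusted p = 0.984).

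**Figure D5:**
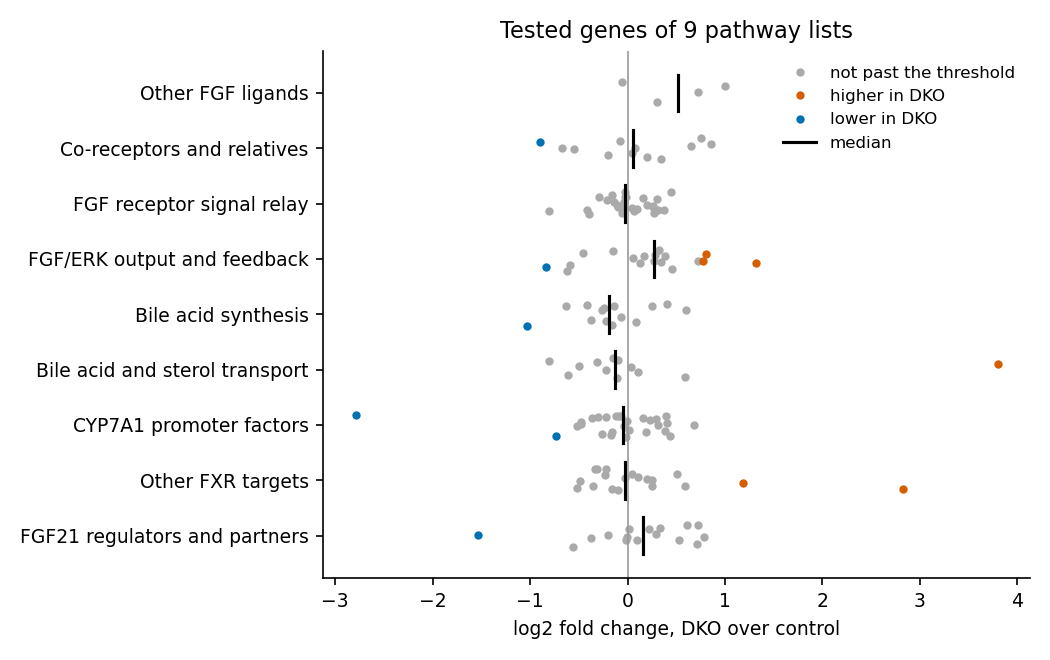
Log2 fold change, DKO over control, of each tested gene in the 9 lists (points, with the list's median as a black line), coloured where the gene passed the threshold. Between 0 and 4 genes passed in each list, and the medians lie between -0.19 and 0.51. The point farthest to the right is ABCG8 and the one farthest to the left is VDR, which have libraries under the floor in control and in DKO respectively, so their fitted values are not measured folds.

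In the 9 lists together 143 genes were tested, of which 6 rose and 6 fell. Over all 13359 genes tested, 2.24% were higher and 3.14% lower, and the median of the list genes was -0.02. Of those named above, UGT2B4 and C3 passed in each fit without 1 library. Leaving out DKO replicate 1 ended the calls of HSPG2, SPRY1, DUSP4, FLRT3, AMACR, VDR and GATA6. Leaving out DKO replicate 2 ended those of HSPG2, IER3, SPRY1, DUSP4, FLRT3, AMACR, ABCG8 and GATA6. Without control replicate 2, HSPG2, DUSP4, FLRT3, ABCG8 and GATA6 did not pass. DESeq2 did not call AMACR, ABCG8 or VDR. With spike-in totals UGT2B4 still passed. ABCG8 and VDR did too, but each entered the test through the clone where it was high and has a library under the floor in the other. ABCG8 is counted among the 6 that rose and VDR among the 6 that fell.

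Markers of the intestine, where FGF19 is normally made, were measured beside it. Of 9 such genes 5 were tested, with 0 risen and 3 fallen, and MUC2 was at 0. The share of all tested genes past the threshold, for this set and those below, was 2.24% higher and 3.14% lower in DKO. At an unadjusted edgeR p under 0.05 the shares were 9.57% higher and 10.6% lower. The summed level of the 9 intestinal genes was 594 and 611 CPM in control and 407 and 441 CPM in DKO. CDX2, a transcription factor that defines the intestinal epithelium, fell from 41.7 and 48.4 CPM to 11.4 and 13.6 CPM (-1.84, edgeR adjusted p = 0.000238), and the cadherin CDH17 and the brush border enzyme SI fell too. VIL1, with the highest level of the 9, had means of 452 CPM in control and 403 CPM in DKO and did not pass (-0.16, edgeR adjusted p = 0.719). TFF3 did not pass either (-0.52, edgeR adjusted p = 0.397), and CDX1, KRT20 and LGALS4 were not tested. FGF19 thus rose in the libraries in which CDX2, CDH17 and SI were low, and their part in its difference was not tested. Of 7 bile duct markers 5 were tested and SPP1 rose, with sums of 566.5 and 796 CPM in control and 549 and 688 CPM in DKO. Of 7 fibroblast markers 5 were tested and none passed (2 higher and 1 lower at an unadjusted p under 0.05), with sums of 95.5 and 143 CPM against 142 and 139.7 CPM. The endothelial markers VWF, CDH5 and KDR were at 0, and PECAM1 rose, with sums over the 5 markers of 7.64 and 6.24 CPM in control and 26.9 and 28.6 CPM in DKO. Of 6 leukocyte markers 2 were tested and none passed, with CD3E at 0. Their sums were 77.5 and 75.6 CPM in control and 109 and 125 CPM in DKO, and both tested markers had higher values in DKO at an unadjusted p under 0.05. The part of these markers in the differences above was not tested.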

How the data were processed

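RNA was measured by sequencing of rRNA-depleted total RNA with ERCC spike-ins, per the labels' protocols. The values deposited by the authors are raw read counts in whole numbers, 1 column per library. According to the submitters' processing notes, reads were handled with STAR 2.5.3a on hg38, with featureCounts (Subread 1.6.3) and with DESeq2. Which annotation was used and how strand was treated in counting is not stated there, so genes that overlap or resemble each other may share reads. The 92 spike-in rows were left out of library sizes. Genes were kept by filterByExpr and compared in R 4.3.3 with edgeR 4.0.16 (TMM factors, quasi-likelihood test, group as the only term, Benjamini-Hochberg adjustment over 13359 genes). The SE is the log2 fold change over the root of its F statistic. CPM are plain counts scaled to 1000000 per library, as mean ± SD over 2 libraries of a clone. Libraries of a clone differed beyond sampling noise (chi-square per degree of freedom 33.6 and 27.1). Separate cultures are not stated in the labels. The p-values then measure only how these libraries varied, possibly for technical reasons, and 2 against 2 cannot reach an exact permutation p under 0.333.

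Positions, lengths and 3′ UTRs come from GENCODE 29, in which 96.64% of gene rows matched exactly 1 gene. The 10 genes and the 9 lists were chosen from general knowledge with earlier results of these data known. Named in the text are the 10 genes, the targeted genes, up to 3 genes past the threshold by adjusted p in each list or else its leading gene, and genes marked as outside this rule or given only as background to it, such as neighbours, markers and genes of known role. Alternatives were DESeq2 1.42.0 and its size factors, limma-voom (limma 3.58.1), no filter, spike-in totals, the replicate number as a block, and each library left out. The length of the longest coding transcript was added after seeing the data. The values of 1 list gene past the threshold are not reported here.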

Additional observations from a re-analysis of the deposited data

How the results depend on the processing

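The number of genes past the threshold was 718, and it was 1194 without a filter, 329 with spike-in totals, and between 218 and 2172 in the fits without 1 library, lowest without DKO replicate 2 and highest without control replicate 1. Of the axis, 1 gene passed, against 0 with spike-in totals and 0 to 1 in the fits without 1 library. In the 9 lists 12 genes passed, against 4 with spike-in totals and 3 to 25 in the fits without 1 library. With the replicate number as a block, 4021 genes and 53 list genes passed and FGF19 remained the 1 gene of the axis (0.92, edgeR adjusted p = 1.16e-11). The labels state no pairing. Over genes, the correlation of deviations between libraries of 1 number was 0.470, which with only 2 numbers does not decide whether the numbers pair the libraries. The block also gave calls to ZFP36 (0.49, edgeR adjusted p = 0.00432), FGF2 (1.01, edgeR adjusted p = 0.000979) and RPS6KA1 (-0.81, edgeR adjusted p = 1.32e-06), which had none without it. FGF19 also passed with DESeq2 (0.90, DESeq2 adjusted p = 0.0116), limma-voom (0.92, limma adjusted p = 0.0277), DESeq2 size factors and no filter. Signs turned for FGFR1 with spike-in totals (-0.48), and in fits without 1 library for FGFR4 (-0.45 to 0.060), KLB (-0.16 to 0.0011) and NR1H4 (-0.20 to 0.077), none of which passed in any fit. The targeted ZFP36 (-0.17) and ZFP36L1 (-0.50) turned with spike-in totals, and leaving out 1 library put ZFP36L1 between -0.0099 and 0.26. The cause of these differences was not tested. Genes at 0 allow no comparison at this depth.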

Other observations

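FGF19 is 1 of 36 tested protein-coding genes with 3 or more UAUUUAU copies in a 3′ UTR no longer than its own. Of these 36 genes 4 were higher in DKO and 0 were lower. The 4 were FGF19, the early response gene IER3 (1.31, edgeR adjusted p = 0.00332), the ankyrin-repeat gene ANKRD1 (1.48, edgeR adjusted p = 0.00178) and the semaphorin gene SEMA3F (1.01, edgeR adjusted p = 0.0147). Without DKO replicate 1 SEMA3F did not pass (1.07, edgeR adjusted p = 0.0721), nor without DKO replicate 2 (0.95, edgeR adjusted p = 0.164), IER3 did not pass without DKO replicate 2 (1.03, edgeR adjusted p = 0.0781), and with spike-in totals none of the 4 passed. Among all 4734 tested coding genes with a 3′ UTR that short, 3.04% were higher and 3.53% lower. Without the limit on length, genes with 3 or more copies were higher in 2.47% and lower in 2.12% of 850 cases, and genes with 0 copies in 2.48% and 3.69% of 7632. The limit was set by the length of the FGF19 3′ UTR with its call known, so these counts describe the genes and carry no test.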
